A study of Mus musculus with 9 samples.

Results

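The genes described here are those of the epidermal differentiation complex and its close partners, measured in whole mouse cornea. They were taken by name: every gene whose symbol starts with Sprr, Lce or S100a, together with Flg, Flg2, Hrnr, Rptn, Tchh, Tchhl1, Crnn, Lor, Ivl, Krtdap, Tgm1 and Tgm3. This gave 58 of the 22180 genes measured: 16 S100A genes, 12 small proline-rich (Sprr) genes, 18 late cornified envelope (Lce) genes, 7 fused S100 genes (Flg, Flg2, Hrnr, Rptn, Tchh, Tchhl1 and Crnn), 3 envelope precursors (Ivl, Lor and Krtdap) and 2 transglutaminases (Tgm1 and Tgm3). The reference annotation places 54 of them on chromosome 3, which is the complex itself, and 4 elsewhere (Tgm1 on chromosome 14, Tgm3 on chromosome 2, Krtdap on chromosome 7 and the pseudogene S100a11-ps on chromosome 12).

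Corneas came from mice of 3 genotypes. Wild type (WT) mice were compared with mice carrying the corn1 mutation of Dstn, the gene for destrin, which takes actin filaments apart, and with rescued mice, which carried the same Dstn mutation and in addition had lost Srf, the gene for serum response factor, from the corneal epithelium by genetic ablation. The labels do not name the genetic driver of that ablation. All 3 groups, WT included, received doxycycline by intraperitoneal injection from postnatal day 28 until collection at postnatal day 58, and all shared a mixed strain background (C57BL6/J, FVB, 129, A.BY and Swiss Black). Each group had 3 biological replicates, each a pool of 10 corneas from 5 mice, hybridised to a single-colour array. The deposited values are normalised log2 intensities, so that a difference of 1 is a doubling of the measured signal.

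Skin keratinocytes end their life by building a cornified envelope: a shell of proteins cross-linked beneath the plasma membrane by transglutaminases. Many of its building blocks are encoded side by side in the epidermal differentiation complex. Involucrin and the small proline-rich proteins act as early scaffold and cross-bridges, loricrin and the late cornified envelope proteins reinforce the shell, and filaggrin and its relatives bundle keratin filaments. The same cluster holds the calcium-binding S100A genes, some of which are known as alarm signals of stressed or inflamed epithelium. The healthy corneal epithelium is stratified and squamous but does not cornify.

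Promoters of 4 members with large differences below, drawn from 3 families, are shown first. They are examples, picked since they differ in the short sequence elements they hold. Each window runs from 250 bases before to 50 bases after the gene start on the strand of the gene, 5′ to 3′, from RefSeq (GRCm38.p6), with matches to the searched motifs in capitals. All 4 lie on chromosome 3.
Sprr1a, chr3:92485832-92486131, - strand: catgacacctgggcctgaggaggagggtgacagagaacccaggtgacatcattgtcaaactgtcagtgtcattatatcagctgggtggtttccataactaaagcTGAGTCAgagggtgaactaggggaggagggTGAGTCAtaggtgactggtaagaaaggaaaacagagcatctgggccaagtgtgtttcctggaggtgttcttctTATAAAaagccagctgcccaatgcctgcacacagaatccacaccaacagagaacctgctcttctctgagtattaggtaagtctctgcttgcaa
Sprr2b, chr3:92316455-92316754, + strand: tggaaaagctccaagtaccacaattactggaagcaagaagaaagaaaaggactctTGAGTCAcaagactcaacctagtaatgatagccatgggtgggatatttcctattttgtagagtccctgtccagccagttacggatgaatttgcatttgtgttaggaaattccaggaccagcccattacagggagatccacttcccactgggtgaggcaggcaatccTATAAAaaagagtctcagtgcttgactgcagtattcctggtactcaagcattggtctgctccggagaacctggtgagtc
Lce3a, chr3:92926181-92926480, - strand: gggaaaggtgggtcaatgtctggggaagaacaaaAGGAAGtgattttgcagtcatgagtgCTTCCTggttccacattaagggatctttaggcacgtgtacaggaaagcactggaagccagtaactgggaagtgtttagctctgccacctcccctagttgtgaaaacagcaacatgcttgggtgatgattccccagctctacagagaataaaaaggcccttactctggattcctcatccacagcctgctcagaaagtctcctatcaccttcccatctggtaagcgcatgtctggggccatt
S100a7a, chr3:90654052-90654351, + strand: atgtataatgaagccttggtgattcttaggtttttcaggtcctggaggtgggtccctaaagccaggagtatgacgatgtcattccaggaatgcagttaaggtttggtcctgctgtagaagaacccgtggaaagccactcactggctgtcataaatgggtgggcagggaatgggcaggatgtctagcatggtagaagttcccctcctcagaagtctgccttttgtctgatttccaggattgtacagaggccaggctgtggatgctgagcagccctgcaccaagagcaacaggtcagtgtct
The motifs searched, on both strands, were the TATA box (TATAAA), AP-1 (TGANTCA), ETS (AGGAAG), grainyhead (AACNNGTT) and the CArG box, the element that serum response factor binds. Counting the base before the gene start as -1, the Sprr1a window holds AP-1 matches that begin at -146 and -116 and a TATA box at -43. In Sprr2b an AP-1 match begins at -195 and a TATA box at -29. The Lce3a window has ETS matches at -216 and, on the other strand, at -190, and that of S100a7a none of the 5 motifs. None of these matches overlaps another.

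RefSeq promoters were found for 51 of the 58 members, with 56 start sites (no entry was found for Lce1f, S100a10, S100a11-ps, S100a14, S100a2, Sprr2g and Sprr2j-ps). The AP-1 motif was present in 19 of the 56 windows (33.9%), against 7.81% of the 32851 mouse promoters of the same length. By family, it stood in 8 of 10 small proline-rich promoters, in 5 of 7 of the fused S100 genes, in all 3 of the envelope precursors and in 3 of 16 S100A promoters, but in 0 of 17 late cornified envelope and 0 of 3 transglutaminase promoters. A TATA box was found in 25 windows (44.6%, against 13.6% of all promoters), among them 9 of 10 small proline-rich and 3 of 17 late cornified envelope promoters. The ETS motif was present in 24 windows (42.9%, against 35.4%), the grainyhead motif in 3 (5.36%, against 4.20%) and the CArG box in 1 (1.79%, against 1.63%), which was that of Flg. Among members called higher in the mutant than in WT below, Sprr1a, Sprr1b, Sprr2b, Sprr2d, Sprr2f, Crnn and Krtdap held AP-1 matches. S100a3, S100a4, S100a8, S100a9, Tgm1, Lce1e and Lce3c, also called higher, held none. Of those called lower, Ivl held 1 match, and Lce3a, Lce3b, S100a1 and S100a7a none. Members called in no comparison, such as Sprr2e, Sprr2h and Sprr2k, held matches too. Whether the motif goes with the direction of change was not tested. These are matches of letters in neighbouring and related genes, and no binding was measured.

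Across the whole series the arrays were alike in scale, with medians from 6.75 to 6.78, and arrays of a group correlated at 0.990 to 0.993 against 0.971 to 0.988 between groups. Dstn checked the label of WT against mutant and rescued, which it does not tell apart. Its log2 intensity averaged 12.57 ± 0.02 in the WT pools, 5.63 ± 0.15 in the mutant and 5.62 ± 0.01 in the rescued pools (SD, n = 3). Srf stood at 9.23, 8.98 and 9.17 in WT, 10.77, 10.72 and 10.55 in mutant and 9.14, 9.45 and 8.45 in rescued pools. The mutant pools were thus highest for Srf, and the WT and rescued ranges overlapped. Whole corneas also hold stroma and endothelium. The corneal marker Krt12 was among the strong signals on every array (group means 13.95, 13.53 and 13.92 in WT, mutant and rescued). The mean of the Y-linked genes Eif2s3y and Kdm5d ranged from 5.50 to 9.96 across WT pools, 7.91 to 9.83 across mutant and 6.93 to 9.27 across rescued pools. The sex make-up of the pools thus differed within groups. WT replicates 1 and 3, at 5.56 and 5.50, lay below every mutant and rescued pool, so sex was also not balanced between groups. Since single bright or dim probes differ in background, the median of all rows, 6.77, serves below as a guide: a fold whose lower group mean lies under it is given as a lower bound, on the assumption of additive background, and no fold is given where both means lie under it.

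Of the 58 members, 24 lay above 6.77 in at least 1 group: 13 of 16 S100A, 5 of 18 late cornified envelope, 3 of 12 small proline-rich, 1 of 7 fused S100 genes, 1 of 3 envelope precursors and 1 of 2 transglutaminases. The other 34 lay below it in every group, among them Lor, Hrnr, Tchh, Sprr3 and most Lce1 genes. A member was called when its Benjamini-Hochberg adjusted p from limma, over all 22180 genes, was under 0.05. In the mutant, 16 members rose and 5 fell against WT, where 15.1% of all genes rose and 16.5% fell. The share of members called was 36.2%, near the 31.6% of all genes, and the median difference was 0.09 for members and -0.02 for all genes. The 2 groups did not overlap for any of these 21 members, as for 99.3% of all genes called in this comparison and 44.7% of all genes tested. With only genes above the median intensity in the fit, which keeps 21 members, 8 rose in the mutant, and 9 of the 58 rose at an adjusted p under 0.01. The shares of all genes given here are from the fit over all genes at 0.05, and those for these settings are not given. In whole corneas, fewer cells of a type and less RNA per cell cannot be told apart.

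Between rescued and mutant corneas, 3 members were higher in the rescued group and 4 lower, beside 6.46% and 6.88% of all genes. The groups of all 7 did not overlap, as for 99.7% of all genes called there and 32.2% of all genes tested. Rescued corneas were then set against WT, where 5 members were higher and 3 lower, beside 6.28% and 7.43% of all genes. In the latter comparison 1 of the 8 called members, Lce3a, had overlapping groups, and 99.4% of all called genes had none (31.6% of all genes tested). The 3 comparisons share arrays, so the values of each member are given side by side below. Leaving out rescued replicate 3 brought the members higher than WT from 5 to 8. The members lower than WT went from 3 to 1 without WT replicate 1, WT replicate 2 or rescued replicate 2, and to 0 without rescued replicate 1. With the mean of the Y-linked genes as a covariate, the mutant calls of Sprr2d, Sprr2g, Lce1e, Lce3c, S100a3, Ivl and Krtdap were lost (adjusted p = 0.0503 to 0.104), and so were the calls of S100a1 and S100a2 between rescued corneas and WT (adjusted p = 0.0802 and 0.0634). Taken over all families, 23 members were called in at least 1 comparison and 35 in none. The share of all genes called in at least 1 comparison was not counted.

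**Figure D1:**
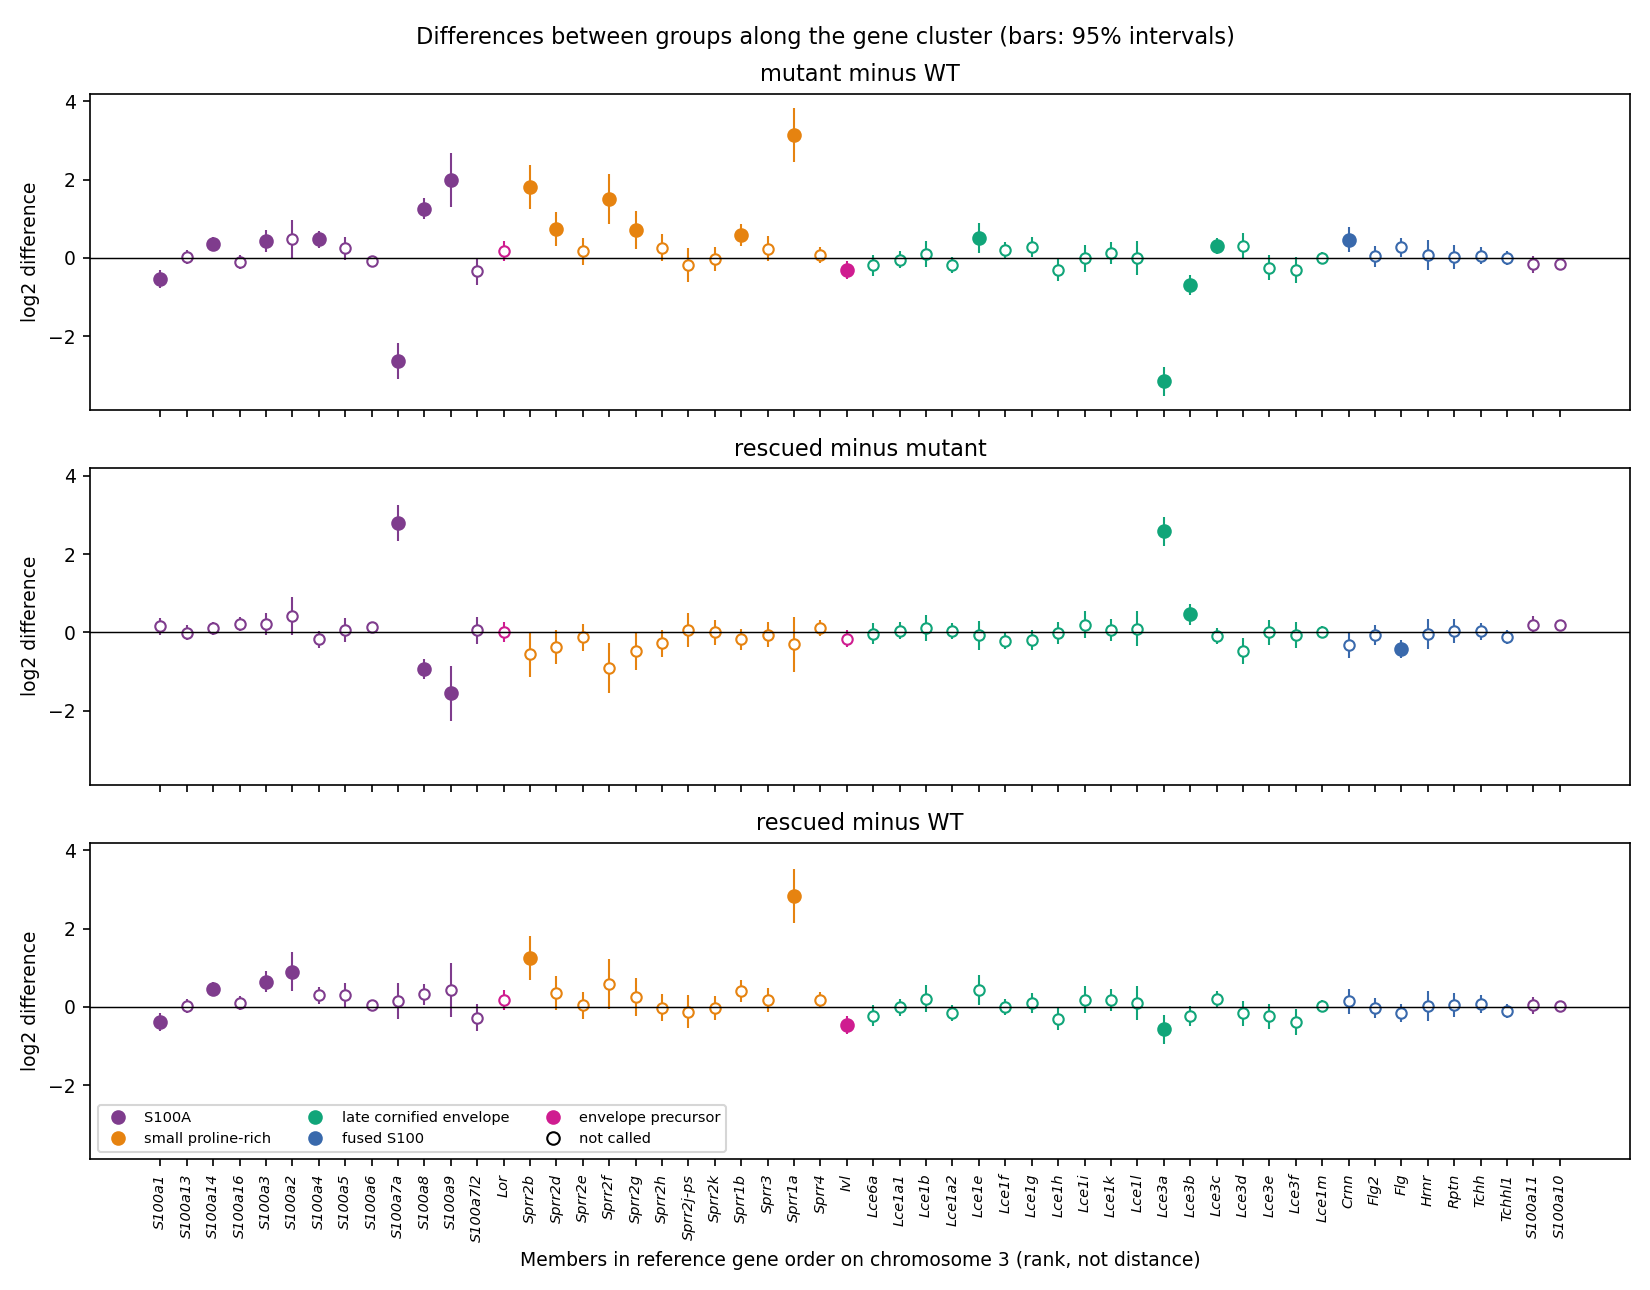
Log2 differences (y axis) of the 54 members on chromosome 3, in reference gene order (x axis, rank and not distance), for mutant minus WT, rescued minus mutant and rescued minus WT. Filled points passed the adjusted p threshold of 0.05, open points did not, and bars are 95% intervals; the points that lie far from 0 are S100a7a, S100a8, S100a9, Sprr2b, Sprr2f, Sprr1a and Lce3a, next to many neighbours close to 0.

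Of the 12 small proline-rich genes, 6 rose in the mutant cornea and none fell, where 15.1% of all genes rose and 16.5% fell. The median difference over the family was 0.42. None of the 12 was called between rescued and mutant corneas (family median -0.23), where 13.3% of all genes were called. In the rescued group 2 were higher than WT (family median 0.21), beside 6.28% of all genes. The proteins are short, proline-rich cross-bridges of the cornified envelope, and their genes are known to be induced in stressed squamous epithelia.

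Sprr1a, also known as a gene of stressed and regenerating cells, had log2 intensities of 8.70, 8.73 and 8.58 in the WT pools, 11.92, 11.33 and 12.16 in the mutant pools and 11.08, 12.29 and 11.12 in the rescued pools. All mutant and rescued pools thus lay well above all WT pools, and the mutant and rescued ranges overlapped. In the mutant it rose by 3.13 (SE 0.31, limma adjusted p = 4.8e-05), which is 8.78-fold. In rescued corneas it was 7.1-fold higher than in WT (2.83, SE 0.31, adjusted p = 0.000464). The rescued minus mutant difference was -0.31 (95% interval -0.999 to 0.39, adjusted p = 0.596), an interval that reaches from halving to a modest increase.

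Sprr2b followed with 7.32, 7.21 and 7.15 in WT, 9.15, 8.87 and 9.09 in mutant and 8.65, 9.01 and 7.76 in rescued pools. WT was lowest throughout, and rescued replicate 3 lay closest to it. The rise in the mutant was 1.81 (SE 0.25, adjusted p = 0.000452, 3.51-fold) and that in the rescued group against WT 1.25 (SE 0.25, adjusted p = 0.011, 2.37-fold). Rescued minus mutant was -0.56 (95% interval -1.13 to 0.01, adjusted p = 0.193); without rescued replicate 2 it was -0.83 (adjusted p = 0.0454).

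Sprr2f, another gene of the Sprr2 group, read 5.49, 4.80 and 4.68 in WT, 6.66, 6.47 and 6.33 in mutant and 5.90, 5.94 and 4.91 in rescued pools, all under the median of the rows. The mutant pools were the highest 3 of the 9, and rescued replicate 3 lay within the WT range. It rose by 1.50 in the mutant (SE 0.29, adjusted p = 0.00279). The rescued minus mutant difference of -0.90 (95% interval -1.54 to -0.26) did not pass (adjusted p = 0.0683), nor did rescued minus WT (0.59, 95% interval -0.05 to 1.23, adjusted p = 0.221). The latter was 0.93 without rescued replicate 3 (adjusted p = 0.0225).

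The other 3 small proline-rich genes called in the mutant changed less. Sprr1b rose by 0.59 (at least 1.5-fold, adjusted p = 0.0044) and was 0.41 above WT in the rescued group (adjusted p = 0.0541; 0.48 and 0.0473 without rescued replicate 3, and also under 0.05 without mutant replicate 1 or 2, at 0.0368 and 0.0341). Sprr2d rose by 0.73 (adjusted p = 0.0157), a call lost without WT replicate 3 or mutant replicate 3 (adjusted p = 0.0501 to 0.0529). Sprr2g, annotated as a transcribed pseudogene in the reference, rose by 0.72 (adjusted p = 0.0301), and lost the call without WT replicate 1 or 3 or mutant replicate 1 (adjusted p = 0.0641 to 0.0876); its rescued minus mutant difference, -0.47 (adjusted p = 0.20), was -0.73 without mutant replicate 3 (adjusted p = 0.0322). Sprr2e, Sprr2h, Sprr2j-ps, Sprr2k, Sprr3 and Sprr4 were not called in any comparison, with mutant minus WT differences from -0.18 to 0.26. Within the Sprr2 subfamily 4 of 8 were called higher in the mutant, beside 15.1% of all genes. Sprr2 copies are near-identical in sequence, so the assignment of signal to a single copy is uncertain.

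Markers of conjunctiva and goblet cells moved in the same direction as the small proline-rich genes: 6 of 8 rose in the mutant and 4 of 8 were higher in rescued corneas than in WT, beside 15.1% and 6.28% of all genes. Their summed linear intensity was 4991 to 6541 in WT, 15849 to 17415 in mutant and 9363 to 15260 in rescued pools. Krt4, a keratin of non-cornified squamous epithelium, rose by 2.97. The goblet cell mucin Muc5ac lay under 6.77 in every group and rose by 0.45 in the mutant (adjusted p = 0.00619). Their part in the small proline-rich result was not tested.

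**Figure D2:**
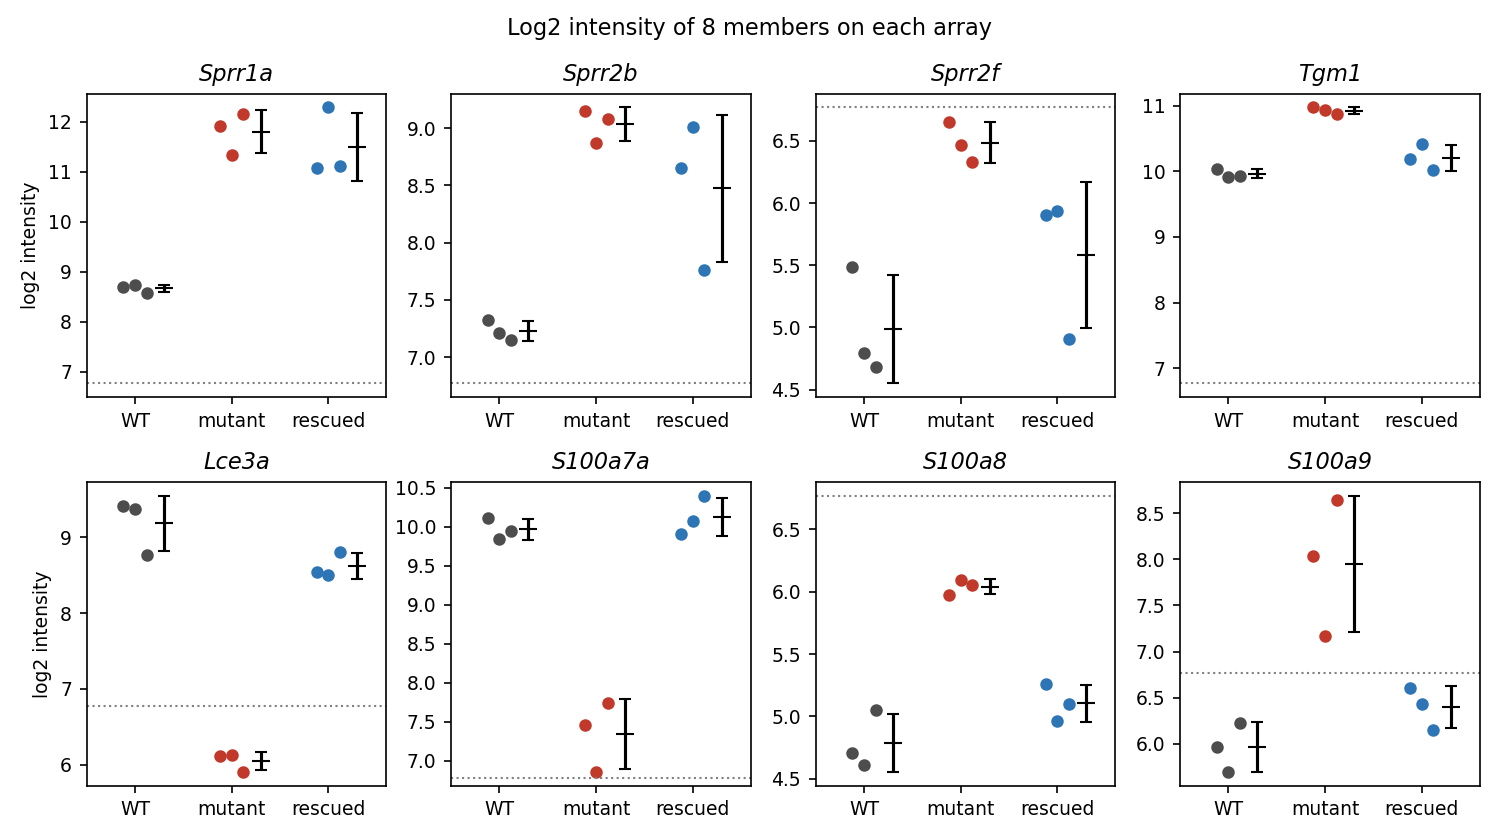
Log2 intensity (y axis, own scale in each panel) of 8 members on each array, by group (x axis), with the mean and SD of each group of 3 pools; the dotted line is the median of all rows, 6.77. Sprr1a and Sprr2b were high in mutant and rescued pools, Lce3a and S100a7a were lowest in mutant pools, and S100a8, S100a9 and Tgm1 were highest in mutant pools.

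Among the 18 late cornified envelope genes, few passed the test, in both directions: 2 rose and 2 fell in the mutant, 2 were above the mutant in rescued corneas, and 1 was lower in rescued corneas than in WT. Of all genes, 15.1% rose and 16.5% fell in the mutant. In rescued corneas 6.46% of all genes were above the mutant and 7.43% lower than WT. The family medians were -0.004, 0.01 and -0.01 for mutant minus WT, rescued minus mutant and rescued minus WT. The genes encode structural proteins added late to the envelope, and the Lce3 group is known from epidermal barrier repair.

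Lce3a fell in the mutant by the largest amount of any member. Its log2 intensities were 9.42, 9.38 and 8.77 in WT, 6.11, 6.12 and 5.90 in mutant and 8.55, 8.50 and 8.81 in rescued pools. Every mutant pool lay under 6.77, and every WT and rescued pool far above it. The mutant was at least 8.84-fold lower than WT (-3.14, SE 0.16, adjusted p = 1.36e-06), and rescued corneas were at least 5.96-fold higher than the mutant (2.58, SE 0.16, adjusted p = 2.08e-05). Against WT the rescued group was lower by 0.57 (1.48-fold, SE 0.16, adjusted p = 0.049), with overlapping groups. That last call was lost without WT replicate 1 or 2, mutant replicate 1, 2 or 3 or rescued replicate 1 or 2 (adjusted p = 0.0614 to 0.154).

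Rows assigned to the neighbours of Lce3a did not share its size of change. Late cornified envelope genes are also close relatives in sequence, and which copy each row measures could not be checked. Lce3b, under 6.77 in every group, fell by 0.70 in the mutant (means 5.58 ± 0.24 and 4.88 ± 0.06, SD, n = 3; adjusted p = 0.00125) and was 0.46 above the mutant in rescued corneas (adjusted p = 0.0287). The latter call was lost without mutant replicate 1, 2 or 3 or rescued replicate 1 or 3 (adjusted p = 0.0526 to 0.0985). Lce3c went the other way: its values were 8.16, 7.88 and 7.89 in WT, 8.27, 8.35 and 8.22 in mutant and 8.13, 8.11 and 8.29 in rescued pools. The mutant pools lay just above all WT pools, a rise of 0.30 (1.23-fold, adjusted p = 0.0288) that was lost without WT replicate 2 or 3 or mutant replicate 1 or 2 (adjusted p = 0.0686 to 0.102). Lce3d averaged 7.46, 7.77 and 7.30 in WT, mutant and rescued pools. Its rescued minus mutant difference of -0.47 (95% interval -0.80 to -0.15) just missed the threshold in the fit over all genes (adjusted p = 0.0603). Whether Lce3d passed under the alternatives was not followed.

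Of the 11 Lce1 genes, only Lce1e was called: it rose by 0.50 in the mutant, at intensities far under 6.77 (means 3.03 and 3.54; adjusted p = 0.0458), and the call was lost without WT replicate 1, 2 or 3, mutant replicate 3 or rescued replicate 3 (adjusted p = 0.0595 to 0.131). The 14 late cornified envelope genes with no call in any comparison, Lce6a, Lce3d, Lce3e, Lce3f and the remaining Lce1 genes, differed between mutant and WT by -0.31 to 0.31. Lce1m is the only member with more than 1 row; the row used here averaged 7.03, 7.04 and 7.06 in WT, mutant and rescued pools and the other 5.95, 5.82 and 5.93.

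The S100A genes held changes in both directions: 5 of 16 rose and 2 fell in the mutant, 1 was above and 2 below the mutant in rescued corneas, and 3 were higher and 1 lower in rescued corneas than in WT. Of all genes, 15.1% rose and 16.5% fell in the mutant. In rescued corneas 6.46% of all genes were above and 6.88% below the mutant, and 6.28% were higher and 7.43% lower than WT. The family medians were 0.08, 0.13 and 0.17 for mutant minus WT, rescued minus mutant and rescued minus WT. These small calcium-binding proteins work as dimers inside cells, and some are released and act on receptors of other cells.

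S100a7a, the mouse relative of human psoriasin, was the S100A gene with the largest difference. It read 10.11, 9.85 and 9.95 in WT, 7.45, 6.85 and 7.73 in mutant and 9.91, 10.08 and 10.40 in rescued pools. The mutant pools stood apart below all others, and the WT and rescued ranges overlapped. It fell 6.16-fold in the mutant (-2.62, SE 0.20, adjusted p = 1.19e-05) and was 6.89-fold above the mutant in rescued corneas (2.78, SE 0.20, adjusted p = 4.72e-05). The rescued minus WT difference was 0.16 (95% interval -0.30 to 0.62, adjusted p = 0.687).

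Most markers of the corneal epithelium shared the direction of Lce3a and S100a7a: of 6 measured, 5 fell in the mutant and 5 were above the mutant in rescued corneas. Of all genes, 16.5% fell and 6.46% were above the mutant. Clu went the other way without a call, at 10.14, 10.41 and 10.37 in WT, mutant and rescued pools (mutant minus WT 0.27, limma adjusted p = 0.0842). The summed intensity of the 6 was 57323 to 58174 in WT, 30734 to 32813 in mutant and 51386 to 54350 in rescued pools. The size differed between these markers: Ly6g6c fell by 3.48 in the mutant and stood 2.96 above the mutant in rescued corneas, while Krt12, the keratin that defines this epithelium and lies near the top of the measured range, fell by 0.42 and stood 0.39 above the mutant. Of 6 markers of corneal stroma and endothelium, 4 also fell in the mutant and 0 rose, beside 16.5% and 15.1% of all genes. Between rescued and mutant corneas 0 of these 6 were called, beside 13.3% of all genes. The part of either set of markers in the results of Lce3a and S100a7a was not tested.

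S100a8 and S100a9 encode the subunits of calprotectin, an alarm protein abundant in neutrophils and monocytes and inducible in epithelium. S100a8 read 4.71, 4.61 and 5.05 in WT, 5.97, 6.10 and 6.06 in mutant and 5.26, 4.96 and 5.10 in rescued pools, all under 6.77. The mutant pools were the highest 3, and the WT and rescued pools overlapped. It rose by 1.25 in the mutant (SE 0.12, adjusted p = 3.49e-05) and fell by 0.94 from mutant to rescued corneas (SE 0.12, adjusted p = 0.000848). Rescued minus WT was 0.32 (95% interval 0.06 to 0.58, adjusted p = 0.111), and 0.45 without WT replicate 3 (adjusted p = 0.0217).

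S100a9 read 5.96, 5.69 and 6.23 in WT, 8.04, 7.17 and 8.64 in mutant and 6.60, 6.44 and 6.15 in rescued pools. The mutant pools were again highest and also the most spread, and only they exceeded 6.77. It was at least 3.97-fold higher in the mutant (1.99, SE 0.31, adjusted p = 0.000878) and then lower in the rescued pools than in the mutant pools by a factor of at least 2.94 (-1.55, SE 0.31, adjusted p = 0.00996). Rescued minus WT was 0.43 (95% interval -0.27 to 1.13, adjusted p = 0.434).

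Neutrophil and monocyte markers were read beside these calprotectin genes. Of 15 neutrophil markers, 6 rose in the mutant and 5 were lower in rescued than in mutant corneas, beside 15.1% and 6.88% of all genes. In rescued corneas 1 was higher and 1 lower than WT, beside 6.28% and 7.43% of all genes. The summed intensity of the 15 was 1047 to 1076 in WT, 1371 to 1561 in mutant and 1107 to 1188 in rescued pools. Cxcr2, the receptor that guides neutrophils into tissue, had means of 6.54, 7.74 and 6.93 in WT, mutant and rescued pools, and Csf3r 6.36, 7.51 and 6.90. Csf3r was called in all 3 comparisons, with rescued corneas 0.54 above WT (limma adjusted p = 0.00915). The markers Ly6g, Mpo, Elane, Camp, Ngp, Retnlg, Stfa2, Mmp8 and Trem1 lay under 6.77 in every group. Trem1 and Stfa2 were nonetheless among the 4 largest mutant minus WT differences of the list. Of 10 monocyte and macrophage markers, 9 rose and 1 fell in the mutant, and 8 were higher in rescued corneas than in WT, beside 15.1%, 16.5% and 6.28% of all genes. The summed intensities of these markers were 3052 to 3165 in WT, 4580 to 5960 in mutant and 4930 to 5785 in rescued pools. The marker that fell was Itgam, an integrin subunit of myeloid cells: it was 2.19-fold lower in the mutant than in WT (adjusted p = 0.000502) and 2.62-fold above the mutant in rescued corneas (adjusted p = 0.000569). The part of these markers in the calprotectin result was not tested.

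Other S100A genes changed by less than a doubling. S100a1, a calcium sensor best known from muscle, fell by 0.54 in the mutant (means 9.93 ± 0.08 and 9.39 ± 0.11, SD, n = 3; 1.45-fold, adjusted p = 0.00234) and was 0.38 lower in rescued corneas than in WT (adjusted p = 0.0315). The call against WT in the rescued group was lost without WT replicate 1, 2 or 3 or rescued replicate 1 or 2 (adjusted p = 0.0503 to 0.112). S100a14, an epithelial family member, rose by 0.37 in the mutant (1.29-fold, adjusted p = 0.00527) and was 0.47 higher in rescued corneas than in WT (1.38-fold, adjusted p = 0.00414). S100a4, found in motile and mesenchymal cells, rose by 0.48 (1.39-fold, adjusted p = 0.00404), with a rescued minus WT difference of 0.30 (adjusted p = 0.0745, and 0.0491 without rescued replicate 1).

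S100a3 and S100a2 were called higher in rescued corneas than in WT. S100a3, a gene of the hair cuticle, averaged 8.36 ± 0.08 in the WT pools, 8.79 ± 0.26 in the mutant and 9.01 ± 0.12 in the rescued pools (SD, n = 3). It was 1.57-fold higher in rescued corneas than in WT (adjusted p = 0.00789) and 1.35-fold higher in the mutant (adjusted p = 0.023), the latter a call lost without WT replicate 1 or 2 or mutant replicate 2 (adjusted p = 0.0517 to 0.0785). S100a2, whose span the reference places inside that of S100a3 so that their signals may not be separate, was 1.87-fold higher in rescued corneas than in WT (adjusted p = 0.0233), and lost the call without WT replicate 2 or 3 or rescued replicate 1 or 2 (adjusted p = 0.0622 to 0.0802). Without mutant replicate 2, rescued minus mutant passed for both, at 0.36 for S100a3 (adjusted p = 0.0433) and 0.71 for S100a2 (adjusted p = 0.0108).

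S100a10, the partner of annexin A2, read 13.63, 13.54 and 13.63 in WT, 13.40, 13.47 and 13.46 in mutant and 13.63, 13.61 and 13.64 in rescued pools. The mutant pools were the lowest 3, by a small margin: mutant minus WT was -0.16 (95% interval -0.28 to -0.03, adjusted p = 0.0648) and rescued minus mutant 0.18 (95% interval 0.06 to 0.31, adjusted p = 0.0636). S100a6, or calcyclin, read 13.05, 13.05 and 13.04 in WT, 12.91, 12.95 and 13.01 in mutant and 13.06, 13.12 and 13.14 in rescued pools. None of its differences passed in the fit over all genes, with mutant minus WT at -0.09 (95% interval -0.22 to 0.04, adjusted p = 0.285) and rescued minus mutant at 0.15 (95% interval 0.02 to 0.28, adjusted p = 0.117). Both differences of S100a10 passed with only genes above the median intensity in the fit (adjusted p = 0.0245 and 0.0214), above the 25th percentile (0.0437 and 0.0411) and with trend and robust variance (0.00398 and 0.00329), and rescued minus mutant for S100a6 passed with the median filter (0.0455) and with trend and robust variance (0.0134). S100a5, S100a7l2, S100a11, S100a11-ps, S100a13 and S100a16 were called in no comparison in the fit over all genes either. Their calls under the alternatives were not followed singly. Over the 9 S100A genes not called between mutant and WT, the differences ran from -0.34 to 0.48.

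**Figure D3:**
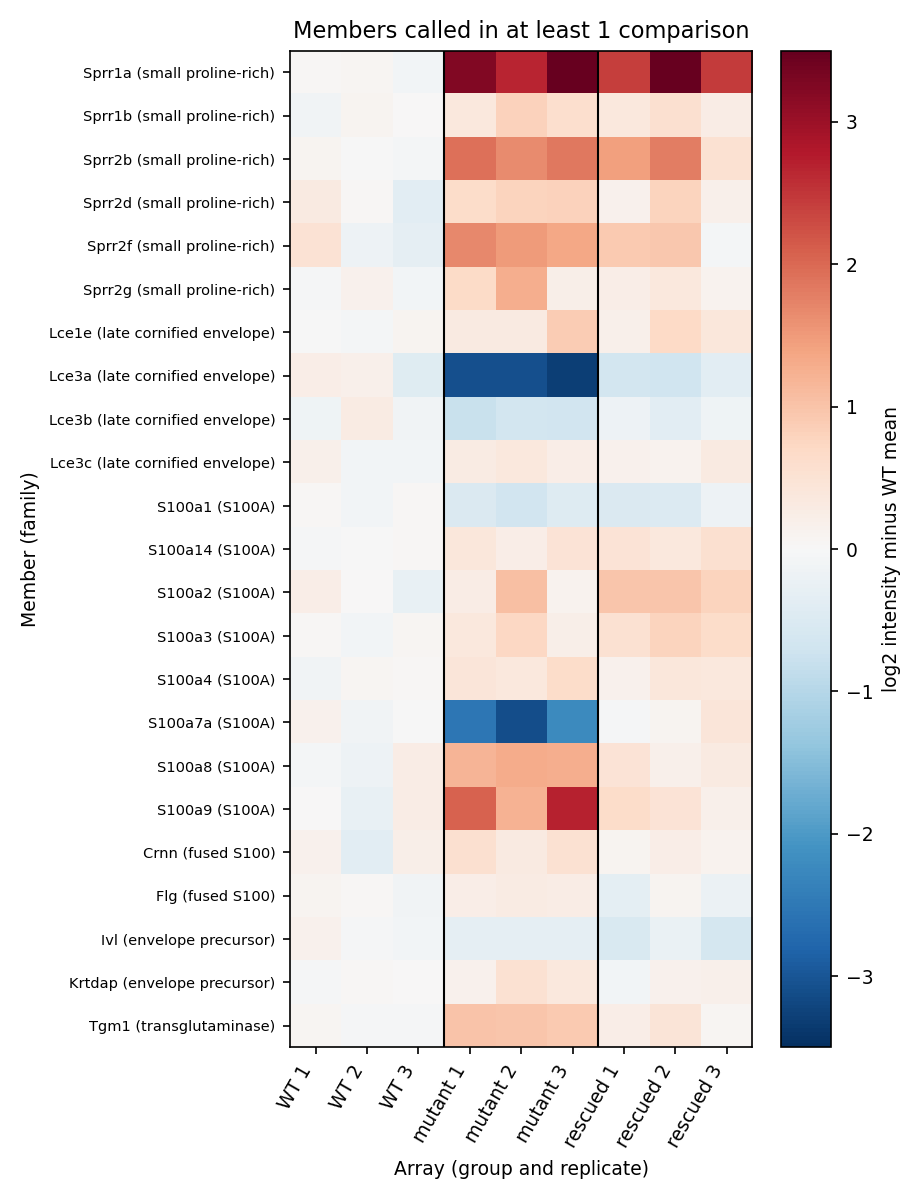
Log2 intensity minus the WT mean of the gene (colour, red above and blue below) for the 23 members called in at least 1 comparison (rows, with family) on each of the 9 arrays (columns, by group and replicate). Sprr1a and Sprr2b stay red in rescued arrays, Lce3a and S100a7a are dark blue in mutant arrays, and rescued replicate 3 is the palest rescued array for Sprr2b and Sprr2f.

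The fused S100 genes, large filament-binding proteins of the cornified layer, stayed near or under 6.77. Flg, which encodes profilaggrin, read 6.72, 6.67 and 6.52 in WT, 6.88, 6.93 and 6.91 in mutant and 6.31, 6.73 and 6.43 in rescued pools. The mutant pools were the highest 3. Rescued corneas lay below the mutant for Flg, by at least 1.33-fold (-0.41, SE 0.10, adjusted p = 0.0279), a call lost without mutant replicate 1, 2 or 3 or rescued replicate 1 or 3 (adjusted p = 0.0699 to 0.0942). Mutant minus WT was 0.27 (95% interval 0.03 to 0.50, adjusted p = 0.0815, and 0.0232 without rescued replicate 2, which changes the shared spread).

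Crnn, the gene for cornulin, a protein of squamous epithelia, read 6.18, 5.64 and 6.23 in WT, 6.57, 6.33 and 6.54 in mutant and 6.11, 6.24 and 6.15 in rescued pools. The mutant pools were the highest 3, and WT replicate 2 lay apart below the other WT pools. It rose by 0.47 in the mutant (SE 0.14, adjusted p = 0.0325), a call lost without WT replicate 2 or mutant replicate 1 or 3 (adjusted p = 0.0511 to 0.10). Rescued minus mutant was -0.32 (95% interval -0.64 to 0.00, adjusted p = 0.191, and 0.0373 without WT replicate 2). Flg2, Hrnr, Rptn, Tchh and Tchhl1 were under 6.77 in every group and called in no comparison.

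Of the envelope precursors, Ivl, which encodes the early scaffold involucrin, was the one measured above 6.77. It read 8.87, 8.68 and 8.61 in WT, 8.42, 8.42 and 8.40 in mutant and 8.20, 8.48 and 8.10 in rescued pools. WT was highest, and mutant and rescued pools overlapped. Ivl was 1.38-fold lower in rescued corneas than in WT (-0.46, SE 0.10, adjusted p = 0.0158) and 1.24-fold lower in the mutant (-0.31, SE 0.10, adjusted p = 0.0441). The first call was lost without WT replicate 1 or rescued replicate 1 (adjusted p = 0.0575 to 0.0585), the second without WT replicate 1 or 2, mutant replicate 1, 2 or 3 or rescued replicate 1 (adjusted p = 0.0589 to 0.147).

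Lor, the gene for loricrin, the main protein of the mature envelope in skin, read 6.11, 6.26 and 6.50 in WT, 6.27, 6.48 and 6.62 in mutant and 6.40, 6.51 and 6.50 in rescued pools. The 3 groups overlapped, and mutant minus WT was 0.17 (95% interval -0.09 to 0.43, adjusted p = 0.316). Krtdap, a secreted protein of differentiating keratinocytes, rose by 0.35 in the mutant (means 6.06 ± 0.03 and 6.41 ± 0.19, SD, n = 3; adjusted p = 0.0278), and the call was lost without WT replicate 1, 2 or 3 or mutant replicate 2 or 3 (adjusted p = 0.0576 to 0.0938).

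Tgm1 encodes the membrane-bound transglutaminase that cross-links the envelope. It read 10.04, 9.91 and 9.93 in WT, 10.97, 10.93 and 10.87 in mutant and 10.19, 10.41 and 10.02 in rescued pools. The mutant pools lay above all others, and the rescued pools were the most spread (SD 0.20, against 0.07 in WT and 0.05 in mutant pools). It rose by 0.96 in the mutant (SE 0.10, adjusted p = 5.02e-05, 1.95-fold) and was 0.71 lower in rescued than in mutant corneas (SE 0.10, adjusted p = 0.00115, 1.64-fold). Rescued minus WT was 0.25 (95% interval 0.03 to 0.46, adjusted p = 0.128), and 0.34 without rescued replicate 3 (adjusted p = 0.0338). Tgm3, the soluble epidermal enzyme, read 6.60, 6.58 and 6.63 in WT, 6.44, 6.52 and 6.57 in mutant and 6.61, 6.88 and 6.50 in rescued pools. The rescued pools overlapped both other groups, and no difference passed (mutant minus WT -0.09, 95% interval -0.30 to 0.12, adjusted p = 0.524).

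The members were then set beside 34 other genes of cornification, which lie outside the families (desmosomal cadherins, envelope plakins, proteases and their inhibitors, lipid enzymes and epidermal keratins). In this list 14 fell and 6 rose in the mutant, 13 were above and 2 below the mutant in rescued corneas, and 5 were higher and 4 lower in rescued corneas than in WT. Of all genes, 16.5% fell and 15.1% rose in the mutant. In rescued corneas 6.46% of all genes were above and 6.88% below the mutant, and 6.28% were higher and 7.43% lower than WT. The list medians were -0.15, 0.08 and -0.05 for mutant minus WT, rescued minus mutant and rescued minus WT. Krt10, the keratin of suprabasal epidermis, fell 10-fold in the mutant (-3.33, adjusted p = 1.49e-07) and was also 4.59-fold lower than WT in the rescued group (adjusted p = 6.01e-06). Asprv1, the protease that processes profilaggrin, was 3.63-fold above the mutant in rescued corneas (means 13.74, 11.83 and 13.69 in WT, mutant and rescued), and Scel, which encodes the envelope precursor sciellin, was 2.83-fold higher (means 12.23, 10.64 and 12.15). Spink5, an inhibitor of epidermal proteases, was instead higher than WT in both the mutant (4.36-fold, adjusted p = 4.2e-06) and the rescued group (4.24-fold, adjusted p = 3.44e-05). Dmkn, which encodes the secreted protein dermokine, rose 5.54-fold in the mutant (adjusted p = 1.47e-05) and was 2.19-fold higher than WT in the rescued group (adjusted p = 0.00546). Dsg1a, a desmosomal cadherin gene, fell 5.08-fold in the mutant (adjusted p = 3.42e-06) and was 1.75-fold lower than WT in the rescued group (adjusted p = 0.00652).

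**Figure D4:**
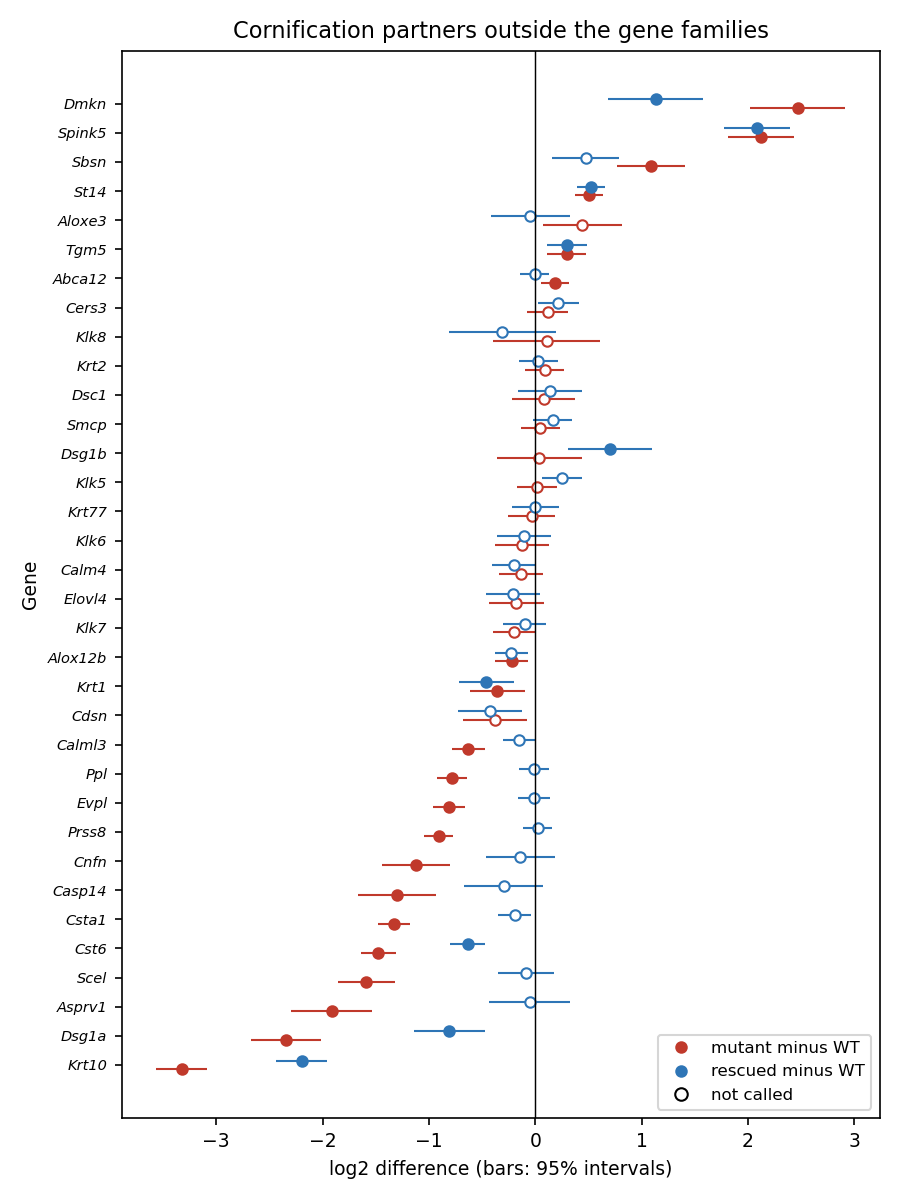
Log2 differences (x axis) of 34 cornification genes outside the member families (y axis), mutant minus WT in red and rescued minus WT in blue, with 95% intervals; filled points passed the adjusted p threshold of 0.05. In the mutant 14 of the 34 fell and 6 rose, beside 16.5% and 15.1% of all genes. In rescued corneas 5 were higher and 4 lower than WT, among them Krt10, Spink5, Dmkn and Dsg1a, beside 6.28% and 7.43% of all genes.

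Regulators of epidermal differentiation formed a second list, of 23 measured genes. In the mutant 5 rose and 10 fell, 8 were above and 3 below the mutant in rescued corneas, and 2 were higher and 4 lower in rescued corneas than in WT. The shares of all genes were those given with the cornification genes above. Jun, a subunit of AP-1, whose motif was counted in the promoters above, averaged 10.49 ± 0.15 in the WT pools, 12.63 ± 0.03 in the mutant and 11.66 ± 0.42 in the rescued pools (SD, n = 3). It was 4.42-fold higher in the mutant than in WT (adjusted p = 1.5e-05), 1.95-fold lower in rescued than in mutant corneas (adjusted p = 0.00592) and 2.26-fold higher in rescued corneas than in WT (adjusted p = 0.0023). Of the other AP-1 subunits on this list, Fosl2 fell by 0.27 in the mutant (adjusted p = 0.00798) and was 0.30 above the mutant in rescued corneas (adjusted p = 0.0113), and Junb was not called (mutant minus WT 0.03, 95% interval -0.13 to 0.18). Prdm1, a repressor that acts late in keratinocyte differentiation, fell 2.36-fold in the mutant (adjusted p = 1.48e-05) and stood 2.54-fold above the mutant in rescued corneas (adjusted p = 5.15e-05). Satb1, a chromatin organiser known to act on this gene cluster in epidermis, fell 3.65-fold in the mutant (adjusted p = 2.15e-05) and stood 2.44-fold lower than WT in the rescued group (adjusted p = 0.000965).

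Among 11 S100 receptors and related genes outside the cluster rule, 5 rose and 1 fell in the mutant, 1 was above and 2 below the mutant in rescued corneas, and 1 was higher in rescued corneas than in WT. These counts stand beside the same shares of all genes. Tlr4, a receptor for calprotectin, rose by 0.27 in the mutant (adjusted p = 0.0135) and was 0.34 higher in rescued corneas than in WT (adjusted p = 0.00991). Anxa1, which encodes a binding partner of S100 proteins, rose by 0.41 in the mutant (adjusted p = 0.00133) and was 0.24 lower in rescued than in mutant corneas (adjusted p = 0.0451).

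Markers of body skin and hair served as a check for skin carried over with the cornea. Of 9 measured, none rose and 3 fell in the mutant, beside 15.1% and 16.5% of all genes. The epidermal keratin genes Krt2 and Krt77, the hair follicle keratin genes Krt71 and Krt25 and the sebaceous gene Awat1 lay under 6.77 in every group. Krt1 and Dct lay above 6.77 in every group and were highest in WT. Krt1 averaged 7.48, 7.13 and 7.02 and Dct 7.60, 7.04 and 7.23 in WT, mutant and rescued pools. With Krt10, they were the genes that fell in the mutant (limma adjusted p = 0.0387 for Krt1 and 0.00605 for Dct). The summed intensity of all 9 was 5286 to 5913 in WT, 1134 to 1265 in mutant and 1733 to 1874 in rescued pools. Most of the WT sum and of its change came from Krt10, which is also among the cornification partners above: without it, the other 8 genes summed to 786 to 846 in WT, 708 to 727 in mutant and 691 to 764 in rescued pools.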

How the data were processed

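Total RNA was extracted with Trizol and labelled with the Ambion WT Expression and Affymetrix WT Terminal Labeling kits, per the labels' protocols. The authors deposited normalised log2 intensities; their normalisation software is not given in the sources used. The base was taken to be 2 from the range of the values (2.14 to 14.3), and scanner files were not used here. Of the 41345 rows, 23521 carry exactly 1 gene symbol in the platform annotation; each gene was represented by its brightest row by mean over the 9 arrays, and no dim gene was removed. The 3 comparisons were fitted with limma 3.58.1 (R 4.3.3; lmFit, contrasts and eBayes) over all genes and arrays, two-sided, with Benjamini-Hochberg adjustment and calls at an adjusted p under 0.05. The fit was tested on simulated data.

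The members and gene lists were chosen with earlier results of these data known. Values on every array are given for called members with non-overlapping groups and a log2 difference of at least 1 in any comparison, for the 2 members of each family with the highest mean, and for S100a8 and S100a9. Of each list, up to 4 genes with the largest difference in a comparison were named, and marker genes were named for their level. Fosl2 and Junb were named outside this rule, as AP-1 subunits beside Jun. Replicate numbers did not pair the arrays (correlation of deviations from the group means of -0.02 to 0.06 over 9 same-numbered pairs). Alternatives were quantile normalisation, array centring, filters at the median and 25th percentile of intensity, the mean of a gene's rows, trend and robust variance, the 6 arrays compared alone, weights per array, a replicate block, a Y-linked covariate (Eif2s3y and Kdm5d), an adjusted p under 0.01 and leaving out each array. Promoters were searched with Python 3.11.15, and figures drawn with matplotlib 3.10.9.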

Additional observations from a re-analysis of the deposited data

Results flagged for a closer look

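Signal was also seen in rows that the report's comparisons do not use, because the annotation assigns them to several small proline-rich 2 copies at once. In a row shared by 4 copies, the WT pools read 8.58, 8.32 and 8.03, the mutant pools 12.22, 11.66 and 11.96, and the rescued pools 11.27, 12.07 and 10.55. Mutant minus WT was 3.6368 on the log2 scale (SE 0.34, limma adjusted p = 0.000124 over all 41345 rows) and rescued minus WT 2.99 (adjusted p = 0.00195). In a row shared by 3 copies, the WT pools read 5.75, 5.38 and 5.32, the mutant pools 10.70, 10.31 and 9.94, and the rescued pools 10.17, 10.98 and 7.82. There mutant minus WT was 4.8307 (SE 0.67, adjusted p = 0.00109) and rescued minus WT 4.17 (adjusted p = 0.00923). A further set of values, which stands under 2 row numbers and was counted once, gave a mutant minus WT difference of 1.6664 (SE 0.28, adjusted p = 0.00288) and a rescued minus WT difference of 1.16 (adjusted p = 0.0452). Rescued replicate 3 was the lowest rescued pool in each of them. A row shared by Sprr2i, Sprr2f and Sprr2e lay far under 6.77 on every array (group means 3.14, 3.09 and 3.21 in WT, mutant and rescued) and did not pass, with mutant minus WT at -0.05 (adjusted p = 0.854). None of the 3 sets of values that passed against WT did so between rescued and mutant corneas (adjusted p = 0.349, 0.673 and 0.368). The fit over all rows was chosen after seeing the data.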

How the results depend on the processing

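No difference of the 27 members followed under alternatives changed direction where it was called; apart from leaving out arrays, 792 of their values kept their side of the threshold, 35 lost a call and 16 gained one. With only genes above the median intensity in the fit, the members higher in the mutant than in WT went from 16 to 8. Those higher in rescued than in mutant went from 3 to 5, and those lower from 4 to 2. Fewer members and genes were tested in that fit. Trend and robust variance gave 6 members higher in rescued than in mutant. These counts cover all members, so they can include calls of members that were not among the 27 followed. At an adjusted p under 0.01, 9 members were higher in the mutant than in WT, 3 were higher in rescued corneas than in WT and 0 were lower, and all genes called fell from 2959 to 1420 for rescued against mutant and from 3042 to 1374 for rescued against WT. With the 6 arrays of that comparison alone, 1 member was lower in rescued corneas than in WT. The shares of all genes that rose or fell in each of these settings are not given. The cause of these shifts in the counts was not tested.

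Leaving out each array gave 4 to 8 members higher and 0 to 3 lower for rescued against WT, with 1812 to 2975 genes called in all, and 1808 to 2795 genes called for rescued against mutant. The largest losses came without rescued replicate 2 (1812 genes, against WT) and, against the mutant, without rescued replicate 3 (1808), mutant replicate 1 (1871) or mutant replicate 3 (1931). With the replicate block, 15 members were higher and 4 lower in the mutant than in WT, Sprr2f passed between rescued and mutant corneas (adjusted p = 0.0231) and Sprr1b between rescued corneas and WT (0.0202), and the calls of Ivl (mutant against WT, 0.0501), Lce3c (0.0529), Lce3b (rescued against mutant, 0.0559) and Lce3a (rescued against WT, 0.073) were lost. With Y-linked expression as a covariate, 11 members were higher and 4 lower in the mutant than in WT, and the report names the calls it ended. The shares of all genes that rose or fell with the block or the covariate are not given. With the 6 arrays of each comparison alone, the mutant calls of Crnn (adjusted p = 0.0638) and Sprr2g (0.0584), the rescued against mutant call of Flg (0.0528) and the rescued against WT calls of Lce3a (0.0846) and S100a1 (0.0504) were lost, and Flg passed between mutant and WT (0.028). Quantile normalisation ended the rescued against WT call of Lce3a (0.0532) and array centring the mutant call of Ivl (0.0556). Sprr1b passed between rescued corneas and WT with either intensity filter, trend and robust variance or the 6 arrays alone (0.0278 to 0.0401), and S100a4 with the median filter (0.0378).

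The number of arrays, 3 in each group, limits the precision. Whether the 34 members that lie under 6.77 in every group have signal over background was not shown.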
